A study of Rattus norvegicus with 24 samples.

Results

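The comparison set 3 liver libraries from rats given TCDD at 10 µg/kg against 3 liver libraries from rats given the sesame oil vehicle, 6 of the 24 libraries of the series. They were chosen by the dose label alone, so no measured value entered the choice. All rats were female Sprague-Dawley, an outbred stock, with an age label of 57 days, and were dosed by oral gavage every 4 days, with livers taken on day 28. No genetic alteration is named for either group, and both received the oil carrier. The series calls the 3 libraries of a group biological replicates, and 6 lower doses of TCDD made up the other 18 libraries. Whole liver was used, so hepatocytes and all other liver cells contributed RNA.

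TCDD (2,3,7,8-tetrachlorodibenzo-p-dioxin) is a chlorinated dioxin that binds the aryl hydrocarbon receptor. The bound receptor moves to the nucleus, pairs with its partner ARNT and raises transcription of genes that carry its response element, among them cytochrome P450s of family 1 and other enzymes that handle foreign compounds. TCDD is degraded slowly and is held in the liver, so repeated dosing keeps the receptor engaged, and rodent livers exposed in this way are known for fat accumulation and altered lipid metabolism.

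The count tables name genes by Ensembl ID only, and the gene table used here held 0 rows with an Ensembl ID. For that reason 0 of the 26404 IDs could be paired with a symbol. A function or a genome position could therefore be assigned to none of them, and neither the liver identity of the samples nor the presence of other cell types could be checked against markers. The 36 functional gene lists drawn up for this comparison, from receptor targets to lipid, bile acid and plasma protein genes, could not be applied. What follows describes groups of gene IDs by level, size of change and agreement between libraries, and 4 single IDs in full: those that rose or fell most in CPM, the count of a gene scaled to the size of its library. No promoter or other sequence could be tied to an ID, and none is shown.

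Gene counts per library ranged from 11866339 to 13522274 in vehicle and from 13751273 to 15804887 at 10 µg/kg, so the treated libraries were all deeper. Alignments that were not unique, left out of every gene's total, made up 23.4% to 24.9% of a vehicle table and 29.3% to 35.0% of a 10 µg/kg table. This is a share of alignments rather than of reads. Between libraries of the same group the median absolute difference of an ID was 0.25 to 0.33 on the log2 scale in vehicle and 0.20 to 0.26 at 10 µg/kg. Between a vehicle and a treated library it was 0.39 to 0.48. All 9 differences across the groups were thus larger than all 6 within them. The margin was small against other groups of the series. Replicates 1 and 2 at 3 µg/kg differed by 0.386, close to the smallest difference across the compared groups, 0.388.

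At 10 µg/kg, 3530 of 12496 tested IDs (28.2%) changed at a Benjamini-Hochberg adjusted p below 0.05 in edgeR's quasi-likelihood test, 14.7% of the tested IDs rising and 13.5% falling. In number, rises and falls were close to balanced, at 1837 and 1693. They differed in size: 41.5% of the rises but 67.5% of the falls were smaller than 2-fold. At the other end, 38 rises and 7 falls were of at least 64-fold in the fit. The difference in size varied with level, taken as mean CPM over all 24 libraries. Below 1 CPM, 216 of 217 rises and 34 of 34 falls reached 2-fold. From 1 to 10 CPM, 594 of 822 rises and 169 of 312 falls did. From 10 to 100 CPM, 226 of 693 rises and 212 of 980 falls did. Between 100 and 1000 CPM, 34 of 97 rises and 111 of 315 falls did, with median log2 changes of 0.78 and -0.84. At 1000 CPM or more, 5 of 8 rises and 24 of 52 falls did, with medians of 1.57 and -0.91. The part of level in the difference was not tested. The median log2 fold change of all tested IDs was -0.02, so the scaling of the libraries placed the typical ID near no change. In whole liver, fewer cells of a type and less RNA per cell cannot be told apart for any of these falls.

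**Figure D1:**
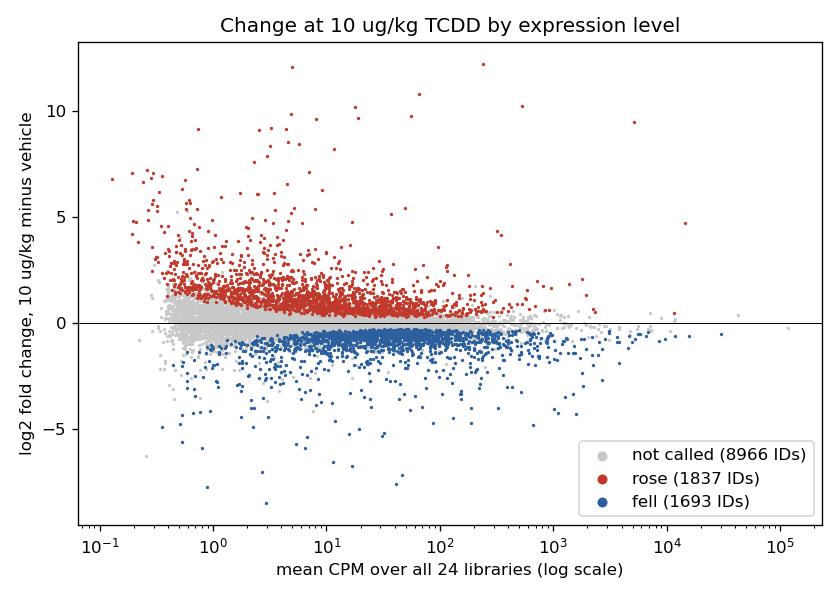
Each point is 1 tested gene ID, placed by its mean CPM over all 24 libraries (x axis, log scale) and its fitted log2 fold change at 10 µg/kg minus vehicle (y axis); red IDs rose, blue IDs fell and grey IDs were not called. The 1837 rises reach further from 0 than the 1693 falls and are most frequent at low levels, while the IDs at the highest levels lie mostly at or below 0.

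The direction of change followed the level of the gene. Among the 114 IDs that averaged 1000 CPM or more over all 24 libraries, 52 fell (45.6%) and 8 rose (7.02%). Among the 892 IDs between 100 and 1000 CPM, 315 fell (35.3%) and 97 rose (10.9%). The balance turned lower down: of the 5435 IDs between 10 and 100 CPM 980 fell and 693 rose, and of the 4911 between 1 and 10 CPM 312 fell and 822 rose. Below 1 CPM, 217 of 1144 IDs rose (19.0%) and 34 fell (2.97%). Fitting these groups alone gave 11 such falls, and omitting replicate 2 or 3 of the highest dose gave 20 or 17.

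The same order held for the median of all tested IDs in each band, called or not. It was 0.43 on the log2 scale below 1 CPM, 0.10 from 1 to 10 CPM, -0.09 from 10 to 100 CPM, -0.30 from 100 to 1000 CPM and -0.41 from 1000 CPM up. When the level was taken instead from the 18 libraries of neither group, a choice made after seeing the data, the medians were 0.47, 0.10, -0.09, -0.31 and -0.43. That second measure of level shares no library with the comparison. An ID of low level could pass the count filter through the 10 µg/kg libraries alone, and a fall is harder to call from few counts, so the shares in the lowest band are not a measure of all weakly expressed genes.

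**Figure D2:**
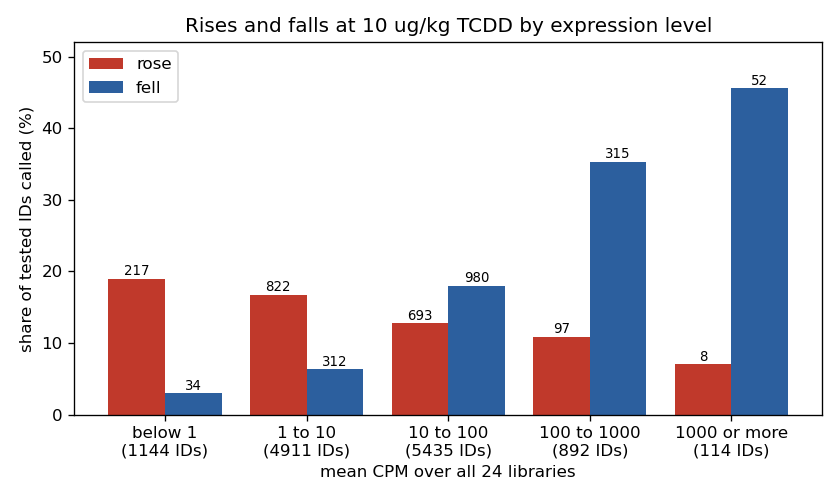
Bars give the share of tested gene IDs that rose (red) or fell (blue) at 10 µg/kg against vehicle, in percent, in 5 bands of mean CPM over all 24 libraries; the number of IDs stands on each bar. The share that fell climbs from 2.97% in the lowest band, where the count is lower without single libraries, to 45.6% in the highest, and the share that rose declines from 19.0% to 7.02%.

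The shift in counts rested on few rising IDs and many falling ones. Rises together gained 10.9 percentage points of gene counts, and 7 of the 1837 IDs made up 50% of that gain. Falls together lost 14.3 points, and 34 of the 1693 IDs were needed for 50% of the loss. The 10 largest gains held 6.16 points, or 56.3% of the gain, while the 10 largest losses held 25.0% of the loss. Tested IDs that were not called together gained 3.38 points. Shares used plain totals, whereas the calls used totals scaled by TMM. The TMM factors were 0.92 to 1.00 in vehicle and 1.08 to 1.11 at 10 µg/kg. An ID of equal CPM in both groups therefore had a larger share at 10 µg/kg, which enlarged gains and lessened losses. The part of this scaling in the 3.38 points was not tested.

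**Figure D3:**
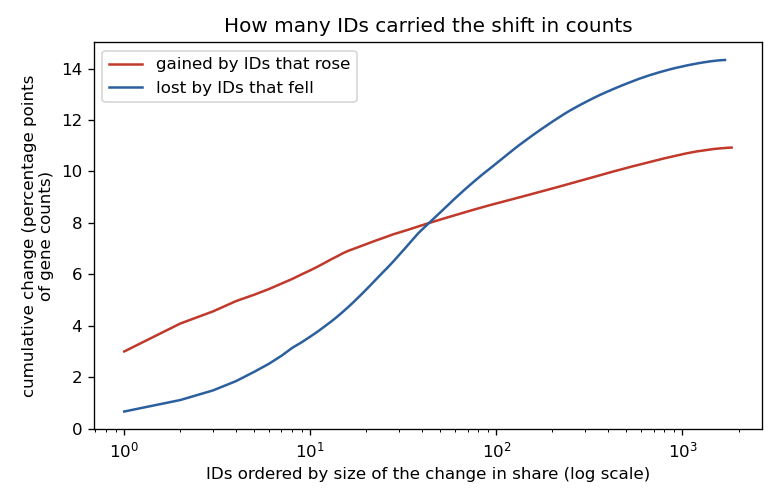
Cumulative change in the share of gene counts (y axis, percentage points, mean of 3 libraries at 10 µg/kg against mean of 3 in vehicle) as IDs are added from the largest change down (x axis, log scale). The gain of the rises (red) is steep at once and ends at 10.9 points, whereas the loss of the falls (blue) builds over many IDs to 14.3 points. Shares use plain totals, not the scaled totals behind the calls, which enlarges gains and lessens losses.

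ENSRNOG00000016173 gained more counts than any other ID. Its 3 vehicle libraries held 1561, 866 and 844 CPM and its 3 libraries at 10 µg/kg 28804, 28775 and 27586 CPM. The groups lay far apart. Relative to its mean the treated group was the tighter of the groups, and replicate 1 was the highest in vehicle. It rose 26.0-fold, from 1090 ± 408 to 28388 ± 695 CPM (SD, n = 3), a log2 change of 4.70 with an SE of 0.276 (edgeR adjusted p = 3.01e-10). It thereby moved from rank 111 to rank 3 among all tested IDs by group mean. Its share of gene counts went from 0.106% ± 0.0423 to 3.10% ± 0.102 (SD, n = 3), a gain of 3.0 of the 10.9 points that all rises gained. Its mean was already 27169 ± 1682 CPM at 1 µg/kg and was highest at 3 µg/kg, at 34186 ± 659 CPM (SD, n = 3). The test of 10 against 3 µg/kg gave a log2 difference of -0.27 (SE 0.236, edgeR adjusted p = 0.555).

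ENSRNOG00000019500 was the second largest gain, with 19.1, 11.4 and 11.5 CPM in vehicle and 10452, 9096 and 10262 CPM at 10 µg/kg. It stood at rank 5364 in vehicle and at rank 10 at the highest dose, and its libraries held 136 to 247 counts in vehicle against 156847 to 164984 at 10 µg/kg. Its gain was 1.09 points of gene counts. Against 3 µg/kg the log2 difference was -0.31 (SE 0.425, edgeR adjusted p = 0.731). For these IDs, both near their level at 10 µg/kg by 1 µg/kg, no difference between the highest doses passed the test.

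ENSRNOG00000034234 lost the most CPM of the IDs called. It held 32115, 39659 and 28124 CPM in vehicle and 23088, 23506 and 23429 CPM at 10 µg/kg, with no overlap and with treated libraries that differed little. It was the third most abundant ID in vehicle and the fourth at 10 µg/kg, and its loss of gene counts came from a modest change, from 33299 ± 5858 to 23341 ± 223 CPM (SD, n = 3). The log2 change was -0.51 with an SE of 0.166 (edgeR adjusted p = 0.0256). This call depended on single libraries. The edgeR adjusted p was 0.159 without vehicle replicate 2, with a log2 fold change of -0.36, and 0.0651, 0.0613 and 0.0626 without 10 µg/kg replicates 1, 2 and 3. It was 0.0828 in a fit of these groups alone.

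ENSRNOG00000046834 had the next largest loss, with 16013, 18071 and 20589 CPM in vehicle and 11611, 11729 and 12946 CPM at 10 µg/kg. All 3 treated libraries lay below all 3 vehicle libraries. The mean fell from 18224 ± 2292 to 12095 ± 739 CPM (SD, n = 3), a log2 change of -0.59 with an SE of 0.145 (edgeR adjusted p = 0.00441). The call held in all 12 alternative settings, with a log2 fold change between -0.50 and -0.68. At 3 µg/kg these 2 IDs averaged 32911 ± 6745 and 14820 ± 1415 CPM (SD, n = 3). The log2 differences of 10 against 3 µg/kg, -0.50 (SE 0.166) and -0.29 (SE 0.144), did not pass the threshold (edgeR adjusted p = 0.0877 and 0.253).

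**Figure D4:**
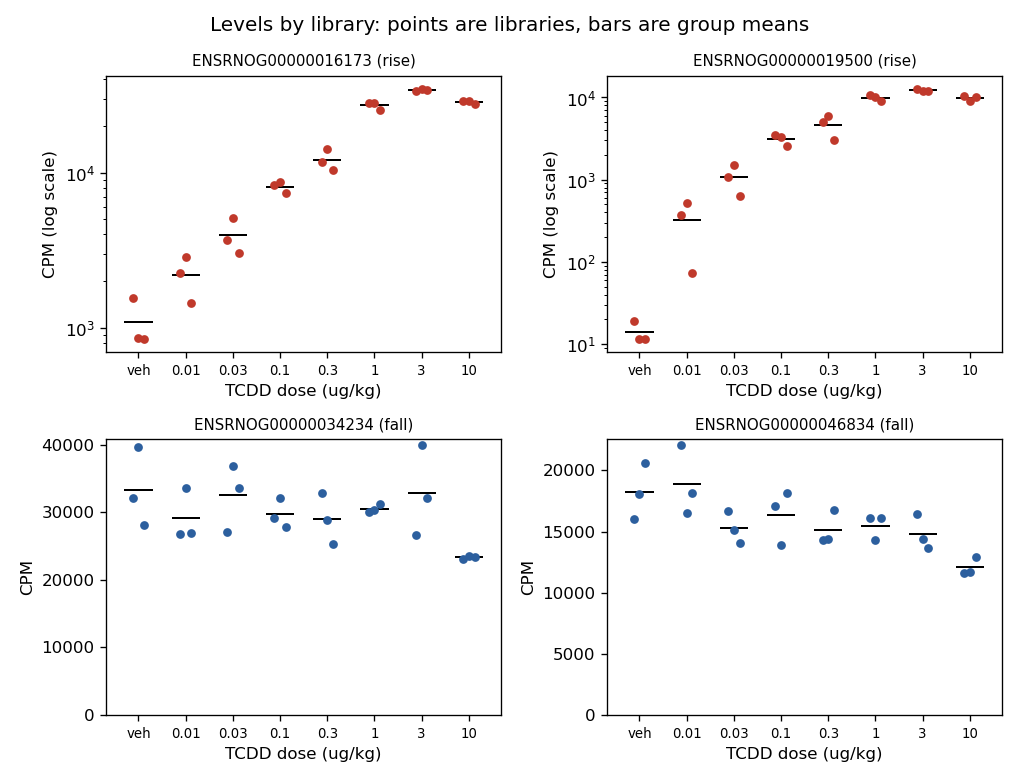
CPM of 4 gene IDs in each library by dose (points; veh, vehicle; 3 libraries per dose) with group means (bars); the upper panels have a log axis and the lower panels a linear axis from 0. ENSRNOG00000016173 and ENSRNOG00000019500 climb from the lowest dose and level off from 1 µg/kg, while the 3 libraries at 10 µg/kg lie below all vehicle libraries for ENSRNOG00000034234 and ENSRNOG00000046834.

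Most called IDs separated the groups library by library. All 3 treated libraries lay above all 3 vehicle libraries for 1763 of the 1837 rises (96.0%) and below them for 1592 of the 1693 falls (94.0%). Over all tested IDs the corresponding shares were 21.4% and 21.3%. The calls were made from these same libraries, so high shares among called IDs follow from the selection and add no support to the calls. The groups overlapped in 74 rises and 101 falls. Conversely, 907 IDs that were higher and 1072 that were lower in every treated library were not called.

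Replicates varied somewhat less at 10 µg/kg than in vehicle. The median SD of log2 CPM over the 3 libraries was 0.25 in vehicle and 0.20 at 10 µg/kg for all tested IDs. It was 0.28 and 0.22 for the IDs that rose, and 0.20 and 0.18 for those that fell. A range of over 2-fold between the lowest and the highest library was found for 19.6% of tested IDs in vehicle and 13.7% at 10 µg/kg. For the IDs that rose these shares were 24.0% and 13.9%. For those that fell they were nearly equal, at 11.3% and 10.9%. The treated libraries were also deeper, and the IDs that rose were chosen for lower levels in vehicle. The parts of depth and of level in these differences were not tested.

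More gene IDs were detected at 10 µg/kg. At an equal depth of 11816273 counts, the expected number of IDs with at least 1 count was 14508, 14380 and 14589 in the vehicle libraries and 15129, 15085 and 14937 at 10 µg/kg. The groups did not overlap, and the other 18 libraries lay between 14274 and 14745, below all 3 libraries of the highest dose. The means were 14492 ± 105 and 15050 ± 101 IDs (SD, n = 3), with an exact two-sided permutation p of 0.10, the smallest that 3 against 3 libraries allow. Non-unique alignments also made up more of the table in the same 3 libraries, and their part in this result was not tested. The shares held by the most abundant IDs did not all move one way. The 10 highest IDs of a library held 27.8% ± 1.55 of a vehicle library and 30.5% ± 0.880 of a 10 µg/kg library (SD, n = 3; exact permutation p = 0.10). The 10 µg/kg libraries, at 29.5% to 31.3%, lay within the 23.9% to 32.3% of the other 18 libraries. The 100 highest held 56.4% ± 1.68 and 57.0% ± 0.921 (exact permutation p = 0.70). The 1000 highest held 81.0% ± 0.742 in vehicle and less, 79.3% ± 0.359, at 10 µg/kg (SD, n = 3; exact permutation p = 0.10), without overlap between the groups. The range at 10 µg/kg, 78.9% to 79.6%, did overlap that of the other 18 libraries, 79.0% to 82.3%.

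**Figure D5:**
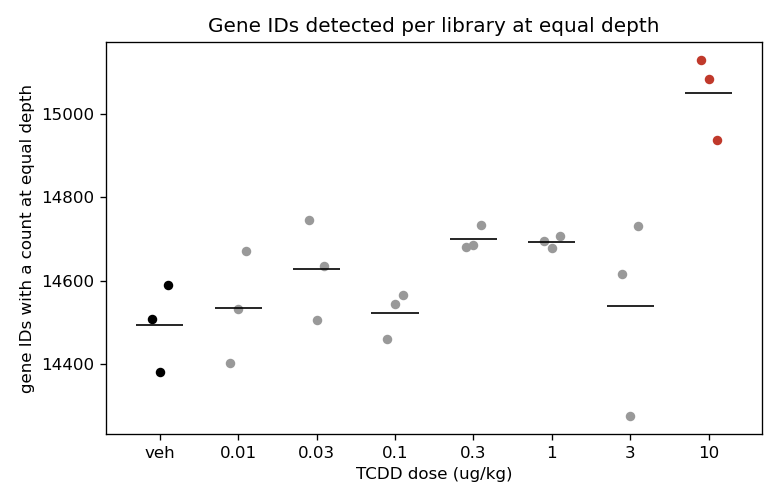
Expected number of gene IDs with at least 1 count when every library is reduced to the same 11816273 counts (y axis, not starting at 0), for each library by TCDD dose (points; black, vehicle; red, 10 µg/kg) with group means (bars). The 3 libraries at 10 µg/kg, at 14937 to 15129 IDs, lie above the other 21 libraries, which reach 14745.

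Over all 26404 IDs, 40 had 0 counts in all 3 vehicle libraries and at least 3 in each library at 10 µg/kg. Their means at 10 µg/kg ran from 0.208 to 39.6 CPM, with a median of 0.443 CPM. A count of 3 in the shallowest vehicle library, taken as the detection floor, is 0.254 CPM, so 17 of the 40 were more than 2-fold above the floor and the highest was at least 156-fold higher than it. Of the 40, 39 had a count in at least 1 of the 18 libraries of the doses between, and 9 reached 3 counts in each library at 3 µg/kg. Already at doses of up to 0.1 µg/kg, 30 had a count in at least 1 library. Only 11 of the 40 passed the count filter and were tested. In the other direction 4 IDs with at least 3 counts in each vehicle library had none at 10 µg/kg, at 0.295 to 3.29 CPM in vehicle. Both numbers use counts not adjusted for depth. All 3 libraries at 10 µg/kg were deeper than all 3 vehicle libraries, so 3 counts were easier to reach there. The part of depth in the contrast of 40 with 4 was not tested.

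The comparison of 10 with 3 µg/kg showed which of these changes differed between the highest doses. It called 661 IDs (5.29% of those tested), 2.46% higher and 2.83% lower at 10 µg/kg. It shares the 10 µg/kg libraries with the comparison to vehicle, so IDs chosen by their change from vehicle are expected to lean the same way here, and the counts that follow are a description. Of the 1837 rises, 263 were higher at 10 than at 3 µg/kg, 1 was lower and 1573 did not pass the test. Of the 1693 falls, 292 were lower at 10 µg/kg, 0 were higher and 1401 did not pass it. Of the 157 rises of at least 8-fold, 52 were higher at 10 than at 3 µg/kg, with a median log2 difference of 1.16 over the 157. Of the 75 falls of that size, 25 were lower, with a median of -1.89. The total of 661 rested on single libraries, at 239 and 202 without 10 µg/kg replicates 2 and 3 and at 414, 340 and 430 without 3 µg/kg replicates 1, 2 and 3. So did the balance of higher and lower calls, 307 to 354 over all libraries. Fitting these groups alone gave 150 higher and 129 lower. Omitting replicate 2 or 3 of the highest dose gave 131 to 108 or 121 to 81, and omitting replicate 2 of the next dose 177 to 163.

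Group means over all 8 groups placed the extreme at the highest dose for most called IDs. Of the 1837 rises, 1477 had their highest mean at 10 µg/kg and 231 at 3 µg/kg. Of the 1693 falls, 1531 had their lowest mean at 10 µg/kg and 115 at 3 µg/kg. These counts describe order only, since the IDs were chosen by their values at 10 µg/kg.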

How the data were processed

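Per the labels' protocols, a TRIzol extraction of total liver RNA was followed by library preparation with an Illumina TruSeq RNA kit. The authors deposited whole-number counts per Ensembl gene ID, 1 table per library. The submitters' processing notes name TopHat 1.4.1, HTSeq 0.6.1, SAMtools 0.1.2, cutadapt 1.4.1, FastQC 0.11.2 and DESeq, without order or settings; genome build, annotation release and strand setting are not given in the sources used here, so overlapping, antisense and near-identical genes are uncertain. The HTSeq summary rows (35.8% to 47.5% of a table) were removed.

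In R 4.3.3, edgeR 4.0.16 (filterByExpr, TMM) fitted 8 group means to all 24 libraries by quasi-likelihood (16 residual degrees of freedom), leaving 12496 of 18198 IDs with a count. Calls used a Benjamini-Hochberg adjusted p below 0.05; the SE is the log2 fold change over the square root of F. CPM used TMM-scaled totals, and shares used plain totals. Equal-depth ID numbers are hypergeometric expectations. Alternatives were RLE scaling, DESeq2 1.42.0, 2 other count filters, a replicate block, a fit of 2 groups, and leaving out each library.

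The lists and rules were chosen with earlier results of these data known. Without symbols, the rule for single genes allowed 2 rising and 2 falling IDs, by largest CPM difference; smaller groups stay unnamed.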

Additional observations from a re-analysis of the deposited data

Results flagged for a closer look

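Alignments that were not unique lie outside the gene counts that the comparisons use, and their share was above the control level. It was 32.0% ± 2.85 (SD) over the 3 libraries at 10 µg/kg, against 24.1% ± 0.797 (SD) over the 3 vehicle libraries and 21.0% to 25.8% in the other 18.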

How the results depend on the processing

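The 3530 calls against vehicle stayed between 2618 and 3393 when each library was left out, and between 2861 (a fit of 2 groups) and 3773 (replicate block) otherwise. Of the 1837 rises 1035 (56.3%) and of the 1693 falls 836 (49.4%) were called in all 12 alternative settings. In any of these settings, 0 of them were called in the opposite direction. The sign of IDs that lost their call was not counted. For changes of at least 2-fold, 760 of 1075 rises and 385 of 550 falls were called in all 12. Rises of at least 8-fold numbered 157, but 237 with no low-count filter. The 661 calls of 10 against 3 µg/kg were 279 in a fit of 2 groups and ranged from 202 to 753 with a library left out; the cause was not tested. The replicate block gave 934, with 540 rather than 354 lower at 10 µg/kg; the fit of 2 groups gave 129 lower and 150 higher. Deviations of same-numbered vehicle and 10 µg/kg libraries correlated across genes at 0.362, 0.169 and 0.091, and vehicle replicate 3 correlated at 0.126 with number 2. Deviations within a group of 3 sum to 0, so these values depend on each other and cannot decide whether the numbers are pairs. The main fit did not take them as pairs, and the replicate block did. DESeq2 called ENSRNOG00000034234 for 10 against 3 µg/kg (adjusted p = 0.0403). Falls below 1 CPM numbered 34, but 11 in a fit of 2 groups and 20 and 17 without 10 µg/kg replicates 2 and 3; the cause was not tested. A count of 3 in the shallowest vehicle library is 0.254 CPM, a chosen mark for the detection floor. The smallest difference detectable at this depth was not tested.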
